A study of Mus musculus with 40 samples.

Results

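The genes described here encode proteins that coat, fuse, form or protect the lipid droplets of the liver cell. The members are 10 genes, fixed by name: the CIDE genes Cidea, Cideb and Cidec, the perilipins Plin2, Plin3, Plin4 and Plin5, the droplet formation genes Fitm1 and Fitm2, and Hilpda. All 10 symbols matched 1 gene in both deposited tables, which share 40594 genes. RNA was sequenced from the livers of 40 male mice aged 5 months in 8 groups of 5. WT mice were C57BL6/J, and KO mice came from PPARγ-loxP mice bred to Alb-Cre mice. Their Cre is driven by the albumin promoter, so that cells in which it was never active keep the gene. The WT mice carried neither the floxed allele nor Cre. Within each genotype the groups were control (unsupplemented control diet), Pio (control diet with 0.01% pioglitazone, a thiazolidinedione that activates PPARγ), HFD (unsupplemented high-fat diet with 60% of kcal from fat) and HFD-Pio (that diet with the same share of pioglitazone). Diets were given for 3 months, starting at 2 months of age. Each genotype has its own deposited table, which cannot be told apart from the genotype, and only the effects of Pio and of HFD were compared between genotypes.

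A lipid droplet is a core of triglyceride and cholesterol ester under a single layer of phospholipid. Perilipins lie on that layer and limit the access of lipases, CIDE proteins gather where droplets touch and let lipid pass from the smaller to the larger, and FIT proteins of the endoplasmic reticulum act where new droplets bud. PPARγ binds DNA with RXR and drives many of these genes in fat cells, where Cidea, Cidec and Plin4 are abundant. In the liver the hepatocyte is the main cell that stores lipid, and Plin2 is its best known droplet coat.

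Totals were 15788242 to 49857017 counts per WT library and 21542958 to 28334251 per KO library. Values below are CPM, counts scaled to library size after TMM normalization, each mean is given with its SD over 5 mice, and tests used edgeR's quasi-likelihood method with Benjamini-Hochberg adjustment over the 12942 genes tested. A gene is named as called, or as having risen or fallen, at an adjusted p of at most 0.05. Pparg itself ranged from 5.79 to 14.2 CPM in WT and from 3.01 to 9.90 in KO mice, and since the exons outside the deletion are counted too, this does not measure the deletion. Hepatocyte markers (Alb, Apoa1, Ttr, Cps1, Cyp2e1 and Hnf4a) were abundant in every library, but 4 libraries stood apart. KO Pio mouse 13 had the lowest hepatocyte sum, 32680 CPM against up to 122000 in its group, and 132 CPM of pancreatic acinar markers. KO HFD mouse 10 had 491 CPM of acinar markers, KO HFD mouse 9 had the lowest hepatocyte sum (65540) and the highest macrophage sum (733) of its group, and WT control mouse 832 had the lowest hepatocyte sum of the WT controls (69390). Several results that rest on them are given without them as well, and leaving out KO HFD mouse 10 changed no edgeR call of a member. In whole liver, fewer cells of a type and less RNA per cell cannot be told apart.

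Pio raised Cidec, Plin4 and Fitm2 in WT mice on both diets, and Cidea was higher in every WT mouse given Pio. On control diet mean levels went from 15.4 to 90.7 CPM for Cidec, from 19.0 to 85.2 for Plin4 and from 43.1 to 66.2 for Fitm2. Cidea was under 1 CPM in each WT control and at a mean of 137 CPM with Pio. Fitm1, the other FIT gene, was higher in every Pio mouse than in any mouse without Pio on the same diet, but was not called on either diet. Cideb, Plin2, Plin3, Plin5 and Hilpda were not called by edgeR with all mice in the fit. The median log2 fold change of the 10 members was 0.39 on control diet and 0.75 on HFD, against -0.02 over all genes tested on both diets. With Cidea left out, the median was the value of Plin2, 0.17 on control diet and 0.63 on HFD.

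These counts need the background of each comparison. On control diet 3.91% of all tested genes were called and 2.44% were called higher, against 4 of the 10 members. On HFD the background was 1.08% called and 0.603% called higher, again against 4 members. Cidea passed the filter of at least 1 CPM in at least 5 mice only through the WT mice given Pio and 1 WT HFD mouse. It therefore had to differ and adds nothing to these counts, and its Pio effect on each diet is given without a p. The other 9 members reached 1 CPM in at least 18 of the 20 mice of each genotype, and 3 of these 9 were called on each diet. Groups with and without Pio did not overlap for 4 members on control diet and 5 on HFD, where 7.53% and 7.12% of all tested genes had such separation. DESeq2 called 5 members on control diet and 4 on HFD (backgrounds 6.28% and 2.78%), and limma with sample weights 7 and 5 (23.9% and 8.4%). Cidea is also in each of these counts of separated groups and of DESeq2 and limma calls, to which it adds nothing.

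**Figure D1:**
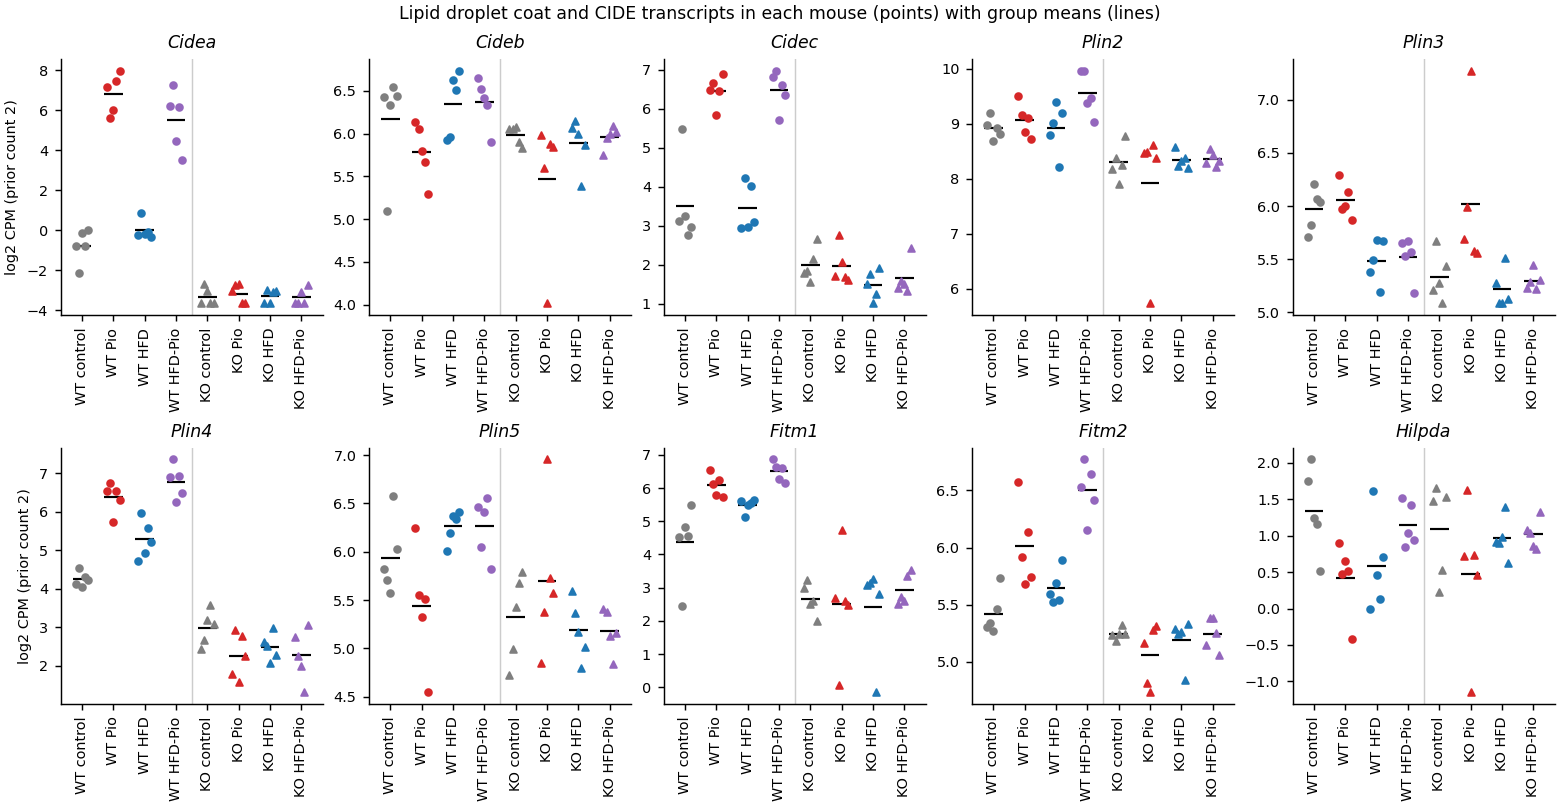
Level of each of the 10 genes in each mouse (points, log2 CPM with a prior count of 2) in the 8 groups of 5, with the group mean as a line, circles for WT and triangles for KO mice. Cidea, Cidec, Plin4 and Fitm1 are higher in all WT mice given Pio than in WT mice without it on the same diet, and KO Pio mouse 13 lies far from its group for Plin2, Plin3 and Cideb.

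Cidea, a CIDE gene best known from brown fat, showed the largest change. In WT controls its level was 0.502, 0.149, 0.846, 0.499 and 0.922 CPM, on 4 to 28 counts per library. In WT Pio mice it was 141, 48.2, 64.1, 179 and 253 CPM, on 1325 to 5481 counts. All 5 Pio mice lay above all 5 controls, and they too were widely spread. The fitted log2 fold change was 7.89 ± 0.60 (SE), given as a description. On HFD the values without Pio were 0.779, 1.72, 0.815, 0.861 and 0.720 CPM. With Pio they were 75.5, 154, 22.1, 72.0 and 11.5 CPM, again all above the mice without it and widely spread. The fitted log2 fold change on HFD was 6.10 ± 0.56. Means with Pio were 137 ± 84.2 on control diet and 67.0 ± 56.4 on HFD, and these groups overlapped. The Pio effect on HFD was lower than that on control diet by a log2 difference of -1.79 ± 0.73. It draws on the WT Pio mice through which Cidea passed the filter, so it is given without a p. EdgeR did not call it. Of all genes 0.0773% were called for this difference between the diets, and of the 10 members 0. DESeq2 called 0 members and limma with sample weights 1 (Cideb, background 10.6%). At an unadjusted p under 0.05 there were 2 members, among them Cidea, which adds nothing to this count.

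In KO mice Cidea was at 0 to 2 counts in each of the 20 libraries, 14 counts in all, and at 0 in 10 of them. Every KO group thus lay at or below the limit of 3 counts that a library at 0 allows, so no fold is given for Pio in KO mice. For Cidea the difference of the Pio effects between the genotypes draws on the WT Pio mice through which it passed the filter. Tests of that difference cannot decide whether the genotypes differ, so no p is given. EdgeR did not call it on either diet.

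Cidec encodes FSP27, the CIDE protein of the large single droplet of white fat. WT controls had 8.61, 44.3, 9.43, 6.71 and 7.77 CPM, where mouse 832 stood far above the others. WT Pio mice had 88.5, 101, 57.0, 87.2 and 119 CPM. Every Pio mouse was above every control, mouse 832 included. The log2 fold change was 2.56 ± 0.39 (edgeR adjusted p = 6.8e-05), and 3.50 without mouse 832. On HFD the values were 7.66, 18.6, 7.81, 16.2 and 8.52 CPM without Pio and 112, 125, 52.4, 96.4 and 81.9 with Pio. The groups were again apart, with a log2 fold change of 3.00 ± 0.40 (edgeR adjusted p = 1.4e-05). The level with Pio was close on both diets, 90.7 ± 22.8 and 93.7 ± 28.3 CPM, while those of Cidea spread far more from mouse to mouse.

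Cideb, the CIDE gene of hepatocytes that takes part in the loading of very low density lipoprotein, was not called in any comparison by edgeR. Limma with sample weights called it lower with Pio on control diet and higher on HFD with Pio, in WT mice. WT means were 76.1 ± 23.9 CPM in controls, 56.4 ± 12.4 with Pio, 83.9 ± 21.2 on HFD and 83.7 ± 15.2 with both. KO means were 63.4 ± 4.68, 48.8 ± 19.1, 60.4 ± 11.3 and 62.4 ± 5.46 CPM in the same order. The lowest mouse of each genotype was one of those that stood apart, WT control mouse 832 at 34.1 CPM and KO Pio mouse 13 at 16.1. Of the 1488 exon bases of Cideb, 1136 are shared with Nop9 on the opposite strand, and whether the counting used strand is not stated, so its level is uncertain.

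Divided by full exon length, the CIDE genes changed in proportion with Pio in WT liver. Of the 1488 exon bases of Cideb, 1136 are shared with Nop9, so its share and those set against it are uncertain. Cideb held 83.4 ± 19.4% of the summed CPM per kb of the CIDE genes in WT controls, Cidec 15.8 ± 19.7% and Cidea 0.849 ± 0.433%. These means rest on mouse 832, where Cidec held 50.9%. Without it, a choice made after the data were seen, Cideb held 92.0 ± 1.49% and Cidec 6.97 ± 1.29% (n = 4). In WT Pio mice Cidea held 54.3 ± 16.5%, Cidec 24.8 ± 7.82% and Cideb 20.9 ± 9.86%. With HFD-Pio the shares of Cidea, Cidec and Cideb were 30.8 ± 16.1%, 32.0 ± 8.51% and 37.3 ± 11.9%, so the order of these neighbours did not stand out from the spread between mice. The summed level was at most 66.6 CPM per kb in WT controls and at least 125.4 in WT Pio mice. In KO mice Cideb held 92.0 to 96.3% of the sum in every group, on average.

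**Figure D2:**
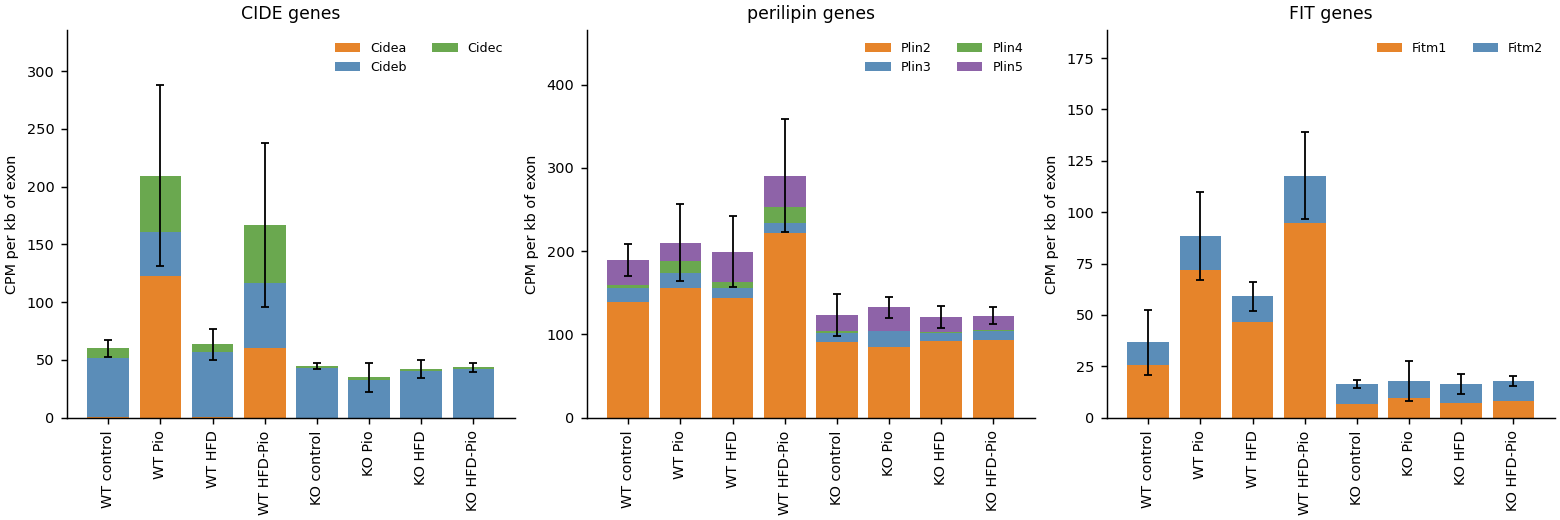
Mean level in CPM per kb of exon (bars start at 0 and are stacked by gene, error bars are the SD of the summed level over 5 mice) of the CIDE, perilipin and FIT genes in the 8 groups. With each gene divided by its full exon length, Cidea and Cidec make up most of the CIDE sum in WT mice given Pio. Plin2 makes up most of the perilipin sum in every group. The part of Cideb is uncertain, as 1136 of its 1488 exon bases are shared with Nop9 on the opposite strand.

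Because Cidea, Cidec and Plin4 are genes of fat cells, fat cell markers were read in the same libraries. The 6 white adipocyte markers were Adipoq, Plin1, Lep, Retn, Adrb3 and Adig. Of these, Adipoq, Plin1 and Lep were at or near 0 in WT Pio mice, with 0 to 3, 0 to 2 and 0 to 1 counts per library. Ucp1, the marker of brown fat cells, was at 0 counts in all 5. The same libraries held 1325 to 5481 counts of Cidea. The other markers were not all low. Retn, which encodes resistin, had 1 to 2 counts in WT controls and 42 to 131 in WT Pio mice, and 0 to 3 and 3 to 70 on HFD without and with Pio. Adig, a small adipogenic gene, had 0 to 2 counts in WT controls and 5 to 23 in WT Pio mice, and 0 to 1 and 2 to 55 on HFD. Both were thus higher in the WT groups where Cidea was higher, and their part in the Cidea values was not tested. Adrb3 was at 239 to 566 counts already in WT controls. The summed level of the 6 markers was 8.98 to 20.2 CPM in WT controls and 8.65 to 29.2 in WT Pio mice, and 13.5 to 24.9 and 13.1 to 31.2 on HFD without and with Pio. Adrb3 made up most of these sums, with 8.90 to 20.1 CPM in WT controls, so the sums do not show the steps of Retn and Adig. Skeletal muscle markers, where Fitm1 is known to be abundant, summed to at most 0.298 CPM in any WT library, and to 17.0 in KO HFD mouse 10, whose Fitm1 level was 6.99 CPM.

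**Figure D3:**
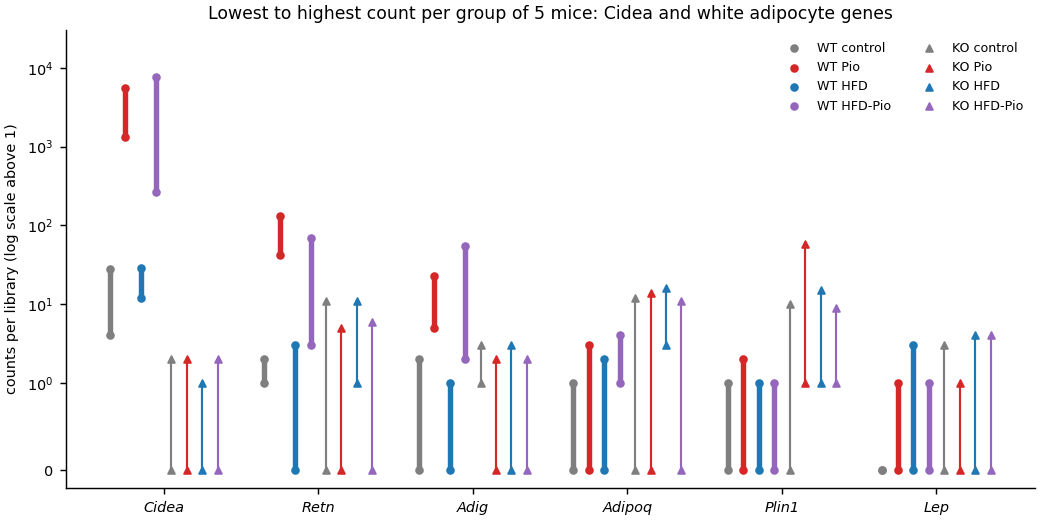
Lowest and highest counts per library in each group of 5 mice (log scale above 1 count, linear below, thick bars for WT and thin bars for KO) of Cidea and 5 white adipocyte genes. Cidea has 1325 to 5481 counts in WT Pio mice where Adipoq, Plin1 and Lep have at most 3, and Retn and Adig reach higher counts in WT mice given Pio than in WT mice without it on the same diet. Adrb3, the other marker of the list, is not drawn and had 107 to 651 counts in WT Pio mice.

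In WT mice Plin4 was the only perilipin that edgeR called for Pio with all mice in the fit. It encodes a perilipin with a long repeat, abundant in white fat. Its values in WT controls were 17.2, 23.2, 16.3, 19.7 and 18.6 CPM. In WT Pio mice they were 93.4, 108, 53.0, 92.4 and 79.5 CPM. The groups were far apart, with a log2 fold change of 2.16 ± 0.29 (edgeR adjusted p = 6.8e-06). On HFD the values were 26.4, 62.5, 30.5, 47.7 and 37.0 CPM without Pio and 120, 164, 76.1, 121 and 89.6 with it. Here too no mice overlapped, and the log2 fold change was 1.48 ± 0.28 (edgeR adjusted p = 0.0036). The smaller step on HFD began from a higher level, and the difference between the diets, -0.68 ± 0.39, was not called (edgeR adjusted p = 0.49).

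Plin2, the main droplet coat of hepatocytes, had the highest mean level per kb of full exon length of the members in every group. This rank is uncertain against Cideb, most of whose exon bases are shared with Nop9. WT controls had 506, 582, 412, 485 and 452 CPM and WT Pio mice 729, 573, 462, 549 and 423, groups that overlapped (log2 fold change 0.17 ± 0.28, edgeR adjusted p = 0.82). On HFD the values were 446, 516, 670, 298 and 587 CPM without Pio and 995, 998, 663, 708 and 524 with it. With Pio 3 of 5 mice lay above all HFD mice, among them the highest values of any group. The log2 fold change of 0.63 ± 0.28 was not called (edgeR adjusted p = 0.27, exact permutation test p = 0.048), but was called at an adjusted p of 0.020 without KO Pio mouse 13. Plin2 held 73.4 ± 4.59% of the perilipin sum per kb in WT controls and 75.6 ± 3.39% in WT HFD-Pio mice. Plin4 moved from 1.74 ± 0.127% to 7.10 ± 1.55% with Pio on control diet and from 3.74 ± 1.69% to 6.81 ± 1.28% on HFD, so it remained a small part of the sum.

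Plin5 ties droplets to mitochondria in tissues that oxidise fat, and Plin3 is a widely expressed perilipin that moves from cytosol to new droplets. Neither was called by edgeR for Pio in WT mice. Limma with sample weights called Plin5 lower with Pio on control diet (adjusted p = 0.016), where it called 23.9% of all genes. Plin5 was at 63.2 ± 19.0 CPM in WT controls, 46.3 ± 18.9 with Pio, 77.0 ± 8.50 on HFD and 78.1 ± 15.9 with HFD-Pio. Plin3 was at 63.1 ± 8.68, 66.7 ± 7.63, 45.0 ± 6.27 and 46.2 ± 5.87 CPM in the same order. On GRCm38, Plin4 (56100591 to 56109803), Plin5 (56111601 to 56117596) and Plin3 (56277476 to 56292873) lie close together on the minus strand of chromosome 17. Plin1, the perilipin of mature fat cells, stayed below the filter, with 0 to 2 counts in every WT library. KO libraries had 0 to 15 counts except KO Pio mouse 13, which had 58 (2.16 CPM).

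The FIT genes had higher values with Pio in WT mice, yet only Fitm2 was called. FIT proteins bind triglyceride in the endoplasmic reticulum, FITM1 mainly in muscle and FITM2 in most tissues. Fitm2 values were 39.5, 40.4, 38.5, 44.1 and 53.0 CPM in WT controls and 95.2, 60.5, 51.3, 70.5 and 53.5 in WT Pio mice. A single Pio mouse fell within the range of the controls, and the log2 fold change was 0.62 ± 0.15 (edgeR adjusted p = 0.012). On HFD Fitm2 was at 48.1, 46.1, 51.6, 46.4 and 59.1 CPM without Pio and at 92.1, 109, 70.9, 99.9 and 85.6 with it. These groups did not overlap (log2 fold change 0.87 ± 0.15, edgeR adjusted p = 0.00068). Fitm2 shares 227 of its 3967 exon bases with 2310001K24Rik on the opposite strand.

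Fitm1 moved further than Fitm2 with a wider spread. WT controls had 22.9, 5.40, 28.5, 23.4 and 45.0 CPM, the lowest being mouse 832, and WT Pio mice 93.7, 69.8, 55.3, 75.8 and 53.2. The groups were apart, with a log2 fold change of 1.47 ± 0.49 that was not called (edgeR adjusted p = 0.079, exact permutation test p = 0.0079, the lowest possible with 5 mice in each group). This fold change ran from 1.23 to 1.80 with 1 mouse left out. The call was made by limma with sample weights, by DESeq2, when WT mice were fitted alone, and when WT control mouse 835, KO Pio mouse 12 or 13, or KO HFD mouse 9 was left out, with adjusted p values of 0.0014 to 0.19 over all alternatives. On HFD the values were 48.7, 34.8, 45.1, 46.6 and 49.8 CPM without Pio and 116, 98.9, 77.0, 96.5 and 71.3 with it. These groups were also apart, at a log2 fold change of 1.03 ± 0.48 (edgeR adjusted p = 0.29, exact permutation test p = 0.0079). In the WT Pio group Fitm1 held 81.2 ± 1.00% of the FIT sum per kb, against 65.4 ± 17.2% in WT controls, or 72.9 ± 4.23% without mouse 832 (n = 4). Fitm1 shares 109 of its 971 exon bases with Gm15932 on the opposite strand.

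Hilpda, which encodes an inhibitor of the lipase ATGL, was the faintest of the members beside Cidea without Pio. Its WT values were 3.28, 4.06, 2.30, 2.16 and 1.35 CPM in controls and 1.78, 1.31, 1.49, 1.34 and 0.666 with Pio. Means of 2.63 ± 1.05 and 1.32 ± 0.41 CPM gave a log2 fold change of -0.98 ± 0.36 that was not called (edgeR adjusted p = 0.12, exact permutation test p = 0.024), but was called without KO Pio mouse 13 (0.030). On HFD the means were 1.55 ± 0.832 without and 2.18 ± 0.472 CPM with Pio, a log2 fold change of 0.50 ± 0.36. The difference between these effects, 1.48 ± 0.51, was likewise not called with all 40 mice (edgeR adjusted p = 0.20) and called at 0.044 without KO Pio mouse 13.

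**Figure D4:**
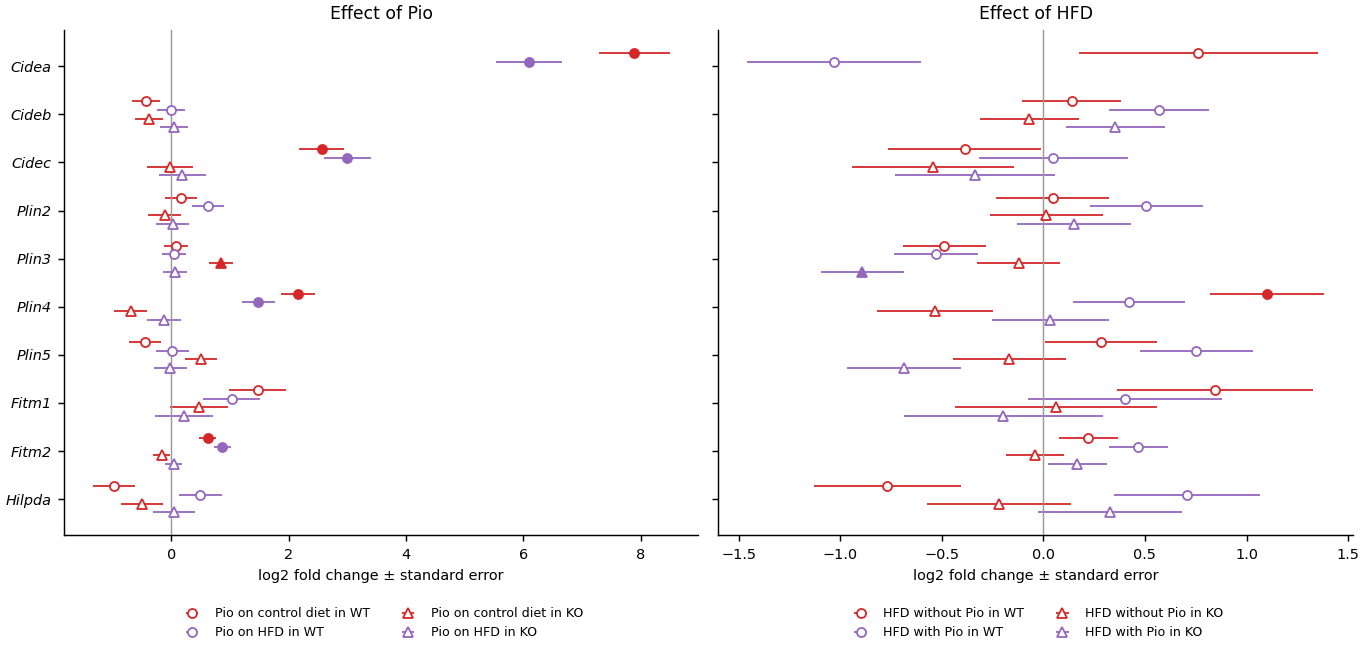
Log2 fold changes of the 10 genes (points, bars are ± 1 standard error) for Pio on each diet and for HFD without and with Pio, with circles for WT and triangles for KO mice and filled points for calls at an adjusted p of at most 0.05, among them Cidea, which passed the filter only through WT mice. Cidea in KO mice is left out because its counts are at or below the limit, and the filled KO points are Plin3, which rests on KO Pio mouse 13.

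Since several of these genes moved together in WT mice, their promoters were read for the direct repeat that PPARγ and RXR bind, AGGTCA and AGGTCA with any base between. RefSeq promoters of GRCm38.p6, from 250 bases before to 50 after the start, were held for 9 of the 10 members in 12 windows, not for Cidea. Of all 32851 promoters 0.0396% held the repeat without a difference, 3.86% held it with at most 2 differing letters, 24.6% with at most 3 and 79.8% with at most 4, both strands read. The closest stretch of the 3 members called with Pio, and of Fitm1 and Plin2, is given 5′ to 3′ on the strand of the gene, with the 13 bases of the match in capitals.
Plin2, chr4:86670266-86670290, minus strand: ctttcaGGACCCCTGACCTaagtca
Cidec, chr6:113435956-113435980, minus strand: cttctgTGCCCTCTTGCCTagtgcc
Fitm1, chr14:55575437-55575461, plus strand: caggaaAGGACACAGGCTAtgtcag
Plin4, chr17:56109915-56109939, minus strand: gagagcAGGGGAAAGGTGCtgggtt
Fitm2, chr2:163472810-163472834, minus strand: gttgccCAGGCAAAGAGCAgcctgc
The Plin2 stretch differs from the repeat in 2 of the 12 letters compared and reads on the opposite strand, with its first base at -225. Cidec and Fitm1 differ in 3 letters, Plin4 in 4 and Fitm2 in 5. The closest match thus belonged to Plin2, which edgeR did not call for Pio with all mice in the fit. Cideb, Plin3 and Plin5, which edgeR did not call for Pio in WT mice, differ in 3 letters, as Cidec and Fitm1 do. Matches as close as those of Cidec and Plin4 were held by 24.6% and 79.8% of all promoters. These shares are per promoter window, and Cidec had another window, whose closest match differs in 4 letters. A match of letters is a description of these windows and shows no site, and repeats farther from the start were not read.

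In KO mice no CIDE or FIT gene was called for Pio. On control diet the called member was Plin3, 1 of 10, where 9.01% of all tested genes were called, and on HFD 0 of 10 were called, against 0.0155% of all genes. At an unadjusted p under 0.05 the HFD count was also 0, and DESeq2 (background 0.0618%) and limma with sample weights (0%) called 0 members there. Cidec was at 4.08 ± 1.34 CPM in KO controls, 4.04 ± 1.55 with Pio, 2.81 ± 0.724 on HFD and 3.20 ± 1.18 with HFD-Pio. Plin4 was at 8.16 ± 2.51, 5.03 ± 2.01, 5.63 ± 1.39 and 5.15 ± 2.28 CPM. Its log2 fold change with Pio on control diet was -0.69 ± 0.29 (edgeR adjusted p = 0.11), opposite in sign to WT mice, and the mice overlapped. Without KO Pio mouse 12 it was -0.88 and was called (adjusted p = 0.043). Fitm2 stayed at 37.9 ± 1.26, 33.8 ± 6.11, 36.8 ± 4.67 and 38.0 ± 3.78 CPM. Fitm1 was at 6.57 ± 2.13, 9.10 ± 10.0, 6.87 ± 3.50 and 7.94 ± 2.65 CPM, with a KO Pio group that ran from 0.970 in mouse 12 to 26.6 in mouse 13. Its log2 fold change of 0.47 ± 0.49 on control diet was -0.47 without mouse 13.

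The effect of Pio differed between the genotypes for 3 members on control diet, where 7.87% of all genes were called. The difference, KO minus WT, was -2.57 ± 0.55 on the log2 scale for Cidec (edgeR adjusted p = 0.0054), -2.86 ± 0.40 for Plin4 (0.00015) and -0.78 ± 0.20 for Fitm2 (0.019). For Cidec it was -3.49 without WT control mouse 832. The Fitm2 difference missed the threshold when no filter on low counts was used, at an adjusted p of 0.062. On HFD Cidec alone was called, at -2.81 ± 0.56 (edgeR adjusted p = 0.016), where 0.0927% of all genes were called. DESeq2 called 4 members for this difference on each diet (10.8% and 0.201% of all genes), and limma with sample weights 7 and 3 (15.4% and 2.74%). Cidea, which adds nothing to such counts, is among the DESeq2 calls on both diets and the limma calls on control diet. The edgeR call of Cidec on HFD was lost without WT HFD mouse 826, 828 or 830, WT HFD-Pio mouse 837 or KO HFD-Pio mouse 19, with adjusted p values up to 0.055. Plin4 and Fitm2 had differences of -1.61 ± 0.40 and -0.82 ± 0.21 on HFD that were not called (0.18 for both), but were called by DESeq2 and limma with sample weights. For Fitm1 neither difference was called by edgeR (adjusted p = 0.35 and 0.92), at -1.005 ± 0.69 on control diet and -0.82 ± 0.69 on HFD. On control diet it was -1.95 without KO Pio mouse 13 (adjusted p = 0.051), and limma with sample weights called it (0.0084).

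Plin3, Plin5 and Plin2 in KO Pio mice turned on mouse 13. Plin3 was at 51.5, 63.5, 155, 47.6 and 46.9 CPM in KO Pio mice, the highest being mouse 13, and at 40.7 ± 6.59 in KO controls. The log2 fold change of 0.84 ± 0.21 was called (edgeR adjusted p = 0.017), but was 0.39 and not called without mouse 13 (0.18), and the call was also lost without KO control mouse 1 or 4 and when KO mice were fitted alone. Plin5 was at 28.7, 41.4, 124, 52.9 and 47.4 CPM, again highest in mouse 13, with a log2 fold change of 0.50 ± 0.28 that fell to 0.06 without it. Plin2 went the other way, with 354, 356, 53.1, 389 and 330 CPM, lowest in mouse 13, against 321 ± 74.2 in KO controls. This library also had the lowest hepatocyte marker sum, 132 CPM of pancreatic acinar markers against 0.532 to 1.95 in the other KO Pio mice, and 42.3 CPM of white adipocyte markers, of which 39.7 were Adrb3 and 2.16 Plin1. The part of these in its perilipin levels was not tested. Without mouse 13, the WT counts of called members were 6 and 5 for Pio (control diet and HFD), at backgrounds of 15.5% and 11.6%. Cidea is in both of these counts, to which it adds nothing. For HFD without and with Pio the counts were 2 and 3, at 6.56% and 8.68%.

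HFD alone moved fewer members. Without Pio, Plin4 rose in WT mice from 19.0 ± 2.70 to 40.8 ± 14.5 CPM, 1 of 10 members where 1.31% of all genes were called. All 5 HFD mice (26.4 to 62.5 CPM) lay above all 5 controls (16.3 to 23.2), with a log2 fold change of 1.10 ± 0.28 (edgeR adjusted p = 0.035). The call was lost without any of the 5 WT control mice, without WT HFD mouse 827, 828, 829 or 830, and with no filter on low counts, with adjusted p values up to 0.12. With Pio in both diets the Plin4 step was 0.42 ± 0.27 and not called (0.52). These comparisons share the control and Pio mice with those above, so their values are not independent of them. In KO mice the Plin4 difference for HFD was -0.53 ± 0.29, and the HFD effects of the genotypes differed by -1.63 ± 0.40, which was not called (edgeR adjusted p = 0.088, background 0.0618%). It was called by limma with sample weights, by DESeq2 and without KO Pio mouse 13.

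Plin3 was lower on HFD in every WT mouse, with and without Pio, but missed the threshold. It was at 52.1, 56.6, 74.0, 66.9 and 65.8 CPM in WT controls and 41.4, 45.0, 51.1, 36.6 and 51.0 on HFD. With Pio it was at 78.1, 62.7, 63.9, 70.1 and 58.5 CPM on control diet and 50.1, 46.2, 51.0, 47.5 and 36.3 on HFD. No mice overlapped in either pair of groups, which held for 3.05% of all genes without and 6.49% with Pio. The log2 fold changes were -0.49 ± 0.20 and -0.53 ± 0.21 (edgeR adjusted p = 0.26 and 0.21, exact permutation test p = 0.0079 for both). Both were called by limma with sample weights, when WT mice were fitted alone and without KO Pio mouse 13 (0.012 and 0.0065).

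With Pio, 0 of 10 members were called for HFD in WT mice, where 1.22% of all genes were called. At an unadjusted p under 0.05 there were 5 members, among them Cidea, which adds nothing to this count. DESeq2 called 1 member (Fitm2, background 2.94%) and limma with sample weights 5 (22.7%). Fitm2 had a log2 fold change of 0.47 ± 0.14 (edgeR adjusted p = 0.096) and Plin5 one of 0.75 ± 0.28 (0.18), both called without WT Pio mouse 841 or KO Pio mouse 13. Cideb had 0.57 ± 0.25 (0.26), Plin2 0.51 ± 0.28 (0.43) and Hilpda 0.71 ± 0.36 (0.37). Cidea had -1.03 ± 0.43, given without a p because it passed the filter through these WT mice. Without Pio the Cidec difference was -0.39 ± 0.38 and turned to 0.53 without WT control mouse 832, and Fitm1 had 0.85 ± 0.48 with 4 of 5 HFD mice above all controls. For HFD with Pio the genotypes differed in 0 members by edgeR (background 0.0155%, 1 member at an unadjusted p under 0.05), 1 by DESeq2 (0.834%) and 3 by limma with sample weights (7.53%), with Plin5 at -1.44 ± 0.39 (edgeR adjusted p = 0.12). In KO mice HFD without Pio gave 0 calls by edgeR and 0 members at an unadjusted p under 0.05 (background 0.185%). HFD with Pio gave 1 in KO mice, Plin3 at -0.89 ± 0.21 (edgeR adjusted p = 0.031, background 4.96%), and that call was lost without KO Pio mouse 13 (-0.42, 0.28), without any of the 5 KO HFD-Pio mice and when KO mice were fitted alone.

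Other genes of the droplet were read from a list of 30 symbols of droplet enzymes, lipases, triglyceride synthesis and droplet contact, of which 29 matched and 28 were tested. In WT mice Pio called 0 of these 28 on control diet and 0 on HFD, with 6 and 7 at an unadjusted p under 0.05, where 3.91% and 1.08% of all genes were called. DESeq2 called 2 on each diet (6.28% and 2.78% of all genes) and limma with sample weights 9 and 5 (23.9% and 8.4%). Their median log2 fold changes were 0.21 and 0.22, against -0.02 over all genes on both diets. With HFD alone in WT mice 2 of 28 were called (1.31% of all genes), Pnpla3 (the lipase-like enzyme of droplets that insulin and carbohydrate induce) at -4.60 ± 0.72 and Mgll, the monoglyceride lipase, at 0.89 ± 0.22. Pnpla3 also fell on HFD with Pio, at -4.24 ± 0.69 in WT and -3.44 ± 0.68 in KO mice (1.22% and 4.96% of all genes called). In KO mice 6 of 28 were called with Pio on control diet, beside 9.01% of all genes, Pnpla2 (ATGL), Pnpla3 and Lipe (hormone-sensitive lipase) higher and Mettl7b, Gpat4 and Vps13a lower. Of these 6, 0 were called when KO mice were fitted alone. The KO minus WT difference of the Pio effect on control diet was called for 3 of 28 (7.87% of all genes), Gpat4 at -0.96 ± 0.19, Vps13a at -1.09 ± 0.32 and Vps13c at -1.02 ± 0.32.

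The genes with patterns most like the called members were found by the root mean square difference over 6 log2 fold changes (Pio, HFD and HFD-Pio against control in each genotype) among 9281 genes of at least 5 CPM on average. Plin4 was nearest to Vnn1, a pantetheinase, at 0.159, then Chrna2 at 0.363 and Abcd2 at 0.456. Fitm2 was nearest to Ttpa (0.0984), Fam126b (0.112) and Entpd5 (0.115), and Cidec to Osbpl3 (0.409), the fatty acid transporter gene Cd36 (0.501) and Olig1 (0.554). The WT values of Cidec include control mouse 832, without which its log2 fold change was 3.50 for Pio and 0.53 for HFD. No neighbours are given for Cidea, whose 3 fold changes in KO mice come from counts at or below the limit. The neighbours of Plin3 were Slbp (0.0535), Mknk2 (0.113) and Mfsd12 (0.120), and their shared step with Pio in KO mice includes mouse 13. Within each genotype the 3 values share 1 set of control mice.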

How the data were processed

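Liver RNA of 40 mice was analysed from 2 tables of deposited counts per gene, 1 per genotype. The authors aligned reads to GRCm38 with STAR 2.0.4b and counted them per gene with Subread featureCounts 1.4.5 on Ensembl release 76, without normalization, per the labels and the methods. Whether strand was used is not stated. The values are whole numbers, and all 40 columns matched a sample by title. Repeated lines (598 in the KO and 574 in the WT table, 0 differing) were reduced to 1 per gene, 96 genes found only in the WT table were left out, and 355 rRNA genes (0.0617 to 1.46% of counts) were removed. Genes needed 1 CPM in 5 of 40 mice, which left 12942 and removed 27297. Precision is lowest for Cidea without Pio (values in the report) and for Hilpda, with 10 to 109 counts per library.

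Counts were fitted in R 4.3.3 with edgeR 4.0.16 (TMM, robust quasi-likelihood F test) in 1 model of 8 group means, and P values were adjusted by Benjamini and Hochberg over all genes of a comparison. Two-sided exact permutation tests of 5 against 5 mice on log2 CPM with a prior count of 2 were made for the 10 members in 8 comparisons of 2 groups (80 values), of which 6 are printed, chosen after their values were seen and not adjusted over the 80. Alternatives were RLE size factors, DESeq2 1.42.0, limma 3.58.1 with sample weights (the method of the study), no filter on low counts, each genotype fitted alone, and each mouse left out. Scripts were tested on simulated data. Exon lengths and overlaps came from GENCODE M21 for GRCm38. Tables and plots were made in Python 3.11.15 with numpy 2.4.6, pandas 2.3.3, matplotlib 3.10.9 and scipy 1.17.1.

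All 10 members were named, with Pparg, Plin1, the other droplet genes called within a genotype, and the 3 genes most like each called member except Cidea. Retn, Adig and the markers belong to fixed lists. Members and lists were chosen with earlier results of these data known. Mouse numbers are those of the labels, and each mouse is a separate animal.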

Additional observations from a re-analysis of the deposited data

Results flagged for a closer look

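In 10 of the 80 groups of 5 mice (10 genes in 8 groups), 1 mouse lay far from the other 4 on the log2 CPM scale, by a gap to its neighbour, as a share of the range, beyond Dixon's 95% critical value, where chance gives about 1 in 20. The same mice enter for all 10 genes, so the 80 are not independent and their count is no test against that rate. KO Pio mouse 13 was such a mouse for Cideb (16.1 CPM, gap 0.800 of the range), Plin2 (53.1 CPM, 0.917) and Plin3 (155 CPM, 0.745). WT control mouse 832 was low for Cideb (34.1 CPM, 0.854) and high for Cidec (44.3 CPM, 0.821). KO HFD mouse 9 was low for Fitm1 (0.826 CPM, 0.875) and Fitm2 (28.6 CPM, 0.822). WT HFD mouse 827 was high for Cidea (1.72 CPM, 0.800, on few counts) and low for Fitm1 (34.8 CPM, 0.722), and KO HFD-Pio mouse 20 was high for Cidec (5.28 CPM, 0.757).

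The effect of Pio differed between KO and WT mice, by the test of the difference itself, for Cidec (-2.57 on the log2 scale), Plin4 (-2.86) and Fitm2 (-0.78) on control diet and for Cidec (-2.81) on HFD. Genotype and table cannot be told apart in these differences.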

How the results depend on the processing

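Of 60 log2 fold changes, 255 of 288 values under other settings and 2347 of 2400 with 1 mouse left out kept their direction and their side of the threshold, and of the 15 called 0 changed sign. Under limma with sample weights Cidec for HFD without Pio in WT turned to 0.33, its difference between the diets to -0.12 (-0.49 to 0.69 with a mouse left out), and Fitm1 with Pio in KO mice to -0.46 on control diet and -0.12 on HFD. With a mouse left out the ranges were -0.65 to 0.53 for that Cidec value, -0.47 to 0.76 and -0.077 to 0.35 for Fitm1, and -0.36 to 0.054 for Plin4 with Pio on HFD in KO. The cause was not tested.

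Members called under limma with sample weights were 7 for Pio on control diet in WT, 5 for HFD with Pio in WT, 1 for the difference of the diets, and 7, 3 and 3 for the differences between genotypes in Pio on control diet, Pio on HFD and HFD with Pio. DESeq2 gave 1 for HFD with Pio in WT, 4 for the genotype difference of Pio on HFD and 1 for that of HFD with Pio. Cidea, which adds nothing there, is in both limma counts of 7 and in the DESeq2 count of 4. With each genotype fitted alone 1 was called for HFD with Pio in WT and 0 for Pio on control diet and HFD with Pio in KO. With 1 mouse left out counts ran from 0 to 2 (HFD without Pio in WT), 0 to 3 (HFD with Pio in WT), 0 to 1 (difference of the diets), 0 to 2 (Pio on control diet and HFD with Pio in KO), 3 to 5 and 0 to 2 (genotype differences of Pio on control diet and HFD) and 0 to 1 (both genotype differences of HFD).

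Other droplet genes called for Pio on control diet in WT were 1 with RLE size factors or WT alone, 2 with DESeq2 and 9 with limma. For Pio on HFD they were 2 with DESeq2, 5 with limma and 1 with WT alone, for HFD with Pio in WT 2 with RLE or DESeq2 and 9 with limma. In KO they were 3 with no filter and 0 with KO alone for Pio on control diet, and 2 with limma and 0 with KO alone for HFD with Pio. With 1 mouse left out they ran from 0 to 6, 0 to 7, 1 to 5 and 1 to 5 in WT and from 1 to 10, 0 to 1 and 0 to 1 in KO mice (Pio on control diet, HFD without and with Pio). The exact p of Plin2 with Pio on HFD was 0.056 on the CPM scale and 0.032 to 0.095 with a mouse left out. No paired analysis was possible because the groups share no mouse numbers. Depth limits Cidea in KO mice, where no fold could be given.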
